A study of Homo sapiens with 2 samples.

Results

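The desmosome components examined were 10 genes, DSG2, DSG3, DSC2, DSC3, DSP, PKP1, PKP2, PKP3, JUP and PERP, taken by symbol from 27685 listed genes. They were listed with 18 of the 63714 transcripts. The RNA-seq data comprised 1 library of H2087 cells and 1 of H596 cells, both untreated human cell lines labelled as lung adenocarcinoma and grown in RPMI medium with fetal bovine serum and antibiotics. The estimated counts summed to 46961500 in H2087 and 55387847 in H596. Without replicates (n = 1 per cell line), no test between the cell lines was made. Levels are FPKM, fragments scaled by transcript length and library size, so that genes can be compared. Where an interval follows a level, it is a 95% Wilson interval computed from the estimated count of the gene and of its library. It covers counting error only.

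Desmosomes are adhesive junctions that hold epithelial cells together and anchor their keratin filaments. Desmogleins (DSG) and desmocollins (DSC) are cadherins that bind those of the neighbouring cell. Plakoglobin (JUP) and the plakophilins (PKP) bind the cadherin tails inside the cell, and desmoplakin (DSP) links this plaque to keratin. DSG2, DSC2 and PKP2 are the forms typical of simple epithelia, whereas DSG3 and DSC3 are typical of the lower layers of stratified epithelia and PKP1 of their suprabasal layers. PERP is a membrane protein of desmosomes whose gene is a target of p53 and p63.

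DSG3 was detected in H596 and had 0 counts in H2087, and DSG2, DSP, PERP and JUP were more abundant in H596. The plakophilins and DSC2 differed by less than 2-fold on the log2(FPKM + 1) scale, and DSC3 and PKP1 were near 0 in both libraries. The 10 genes summed to 215 FPKM in H2087 and 785 in H596, a ratio of 3.65, while the FPKM of all genes together had a ratio of 0.881. The members held 0.0460% of all FPKM in H2087 and 0.190% in H596. DSG3 and DSC3 (2 of 10) had 0 counts in H2087, as did 36.3% of all genes, whereas each member had counts in H596 (0 of 10 at 0), where 36.0% of all genes had none. In bulk RNA, fewer cells that express a gene and less RNA per cell cannot be told apart.

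A gene was counted as higher or lower where log2(FPKM + 1) differed at least 2-fold, among the 13048 genes whose FPKM averaged 1 or more over both libraries. Of the 10 members, 8 passed this filter and 5 of them were higher in H596, against 18.2% of all genes tested. None was lower (0 of 8), against 14.2% of all genes. DSG3 passed the filter only through its level in H596, so its place among the higher genes was fixed by the filter. DSC3 and PKP1 did not pass it. Scaling the counts by edgeR's TMM factors, which lowers the median difference of all genes by 0.11, kept these 5 genes higher and placed PKP2 past the limit as lower. With this scaling, 15.7% of all genes tested were higher and 16.2% lower.

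**Figure D1:**
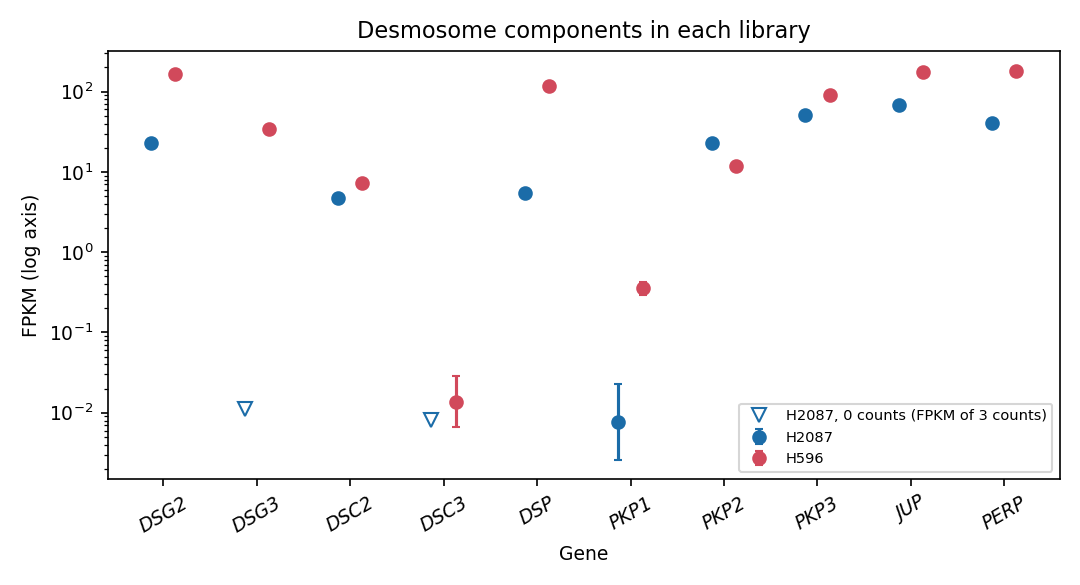
FPKM (vertical log axis) of the 10 desmosome genes (horizontal axis), with 1 point per library, blue for H2087 and red for H596, and bars for the 95% counting interval. Open triangles stand at the FPKM that 3 counts would give where a gene had 0 counts, as for DSG3 in H2087; the points of H596 lie above those of H2087 for every gene but PKP2.

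**Figure D2:**
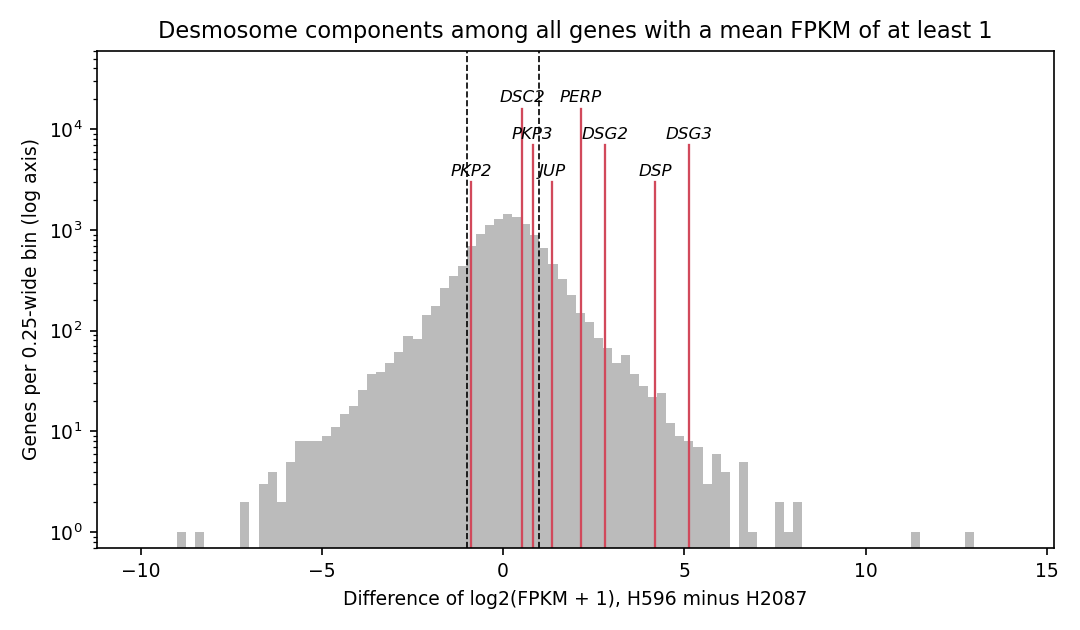
Difference of log2(FPKM + 1), H596 minus H2087 (horizontal axis), for 13048 genes, with the number of genes per bin on a log axis. Red lines mark the 8 desmosome genes that passed the filter and dashed lines mark 2-fold; DSG3, DSP, DSG2, PERP and JUP lie to the right of the upper dashed line and PKP2, DSC2 and PKP3 between the lines.

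DSG2 (gene 1829), the desmoglein of nearly all desmosome-bearing tissues, lies at chr18:29077967-29128970 (hg19, as are all gene positions). It was measured at 22.9 FPKM (95% interval, 22.3 to 23.4) from 6437 counts in H2087 and 167 (166 to 169) from 55781 counts in H596. The H596 level was 7.32 times that of H2087 (95% interval, 7.13 to 7.51), and its rank among all genes was 3363 and 350, respectively. Of the genes tested, 2.53% had a difference as high as that of DSG2.

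DSG3 (gene 1830), the desmoglein of the basal layers of skin and mucosa and the target of autoantibodies in pemphigus vulgaris, lies beside DSG2 at chr18:29027732-29058665. It had 0 counts in H2087, where 3 counts, taken as the upper limit of a zero, correspond to 0.0113 FPKM. In H596 it reached 33.9 FPKM (95% interval, 33.3 to 34.5) from 10678 counts, which is 3007 times this limit. Only 39 of the 27685 genes, 0.141%, had 0 counts in H2087 and an FPKM of at least 10 in H596, and DSG3 was the only member among them. It ranked 2327 in H596. Other desmogleins were not detected: DSG1, of the upper epidermis, and DSG4, of the hair follicle, had 0 counts in both libraries. DSG2 thus held 100% of the summed desmoglein FPKM in H2087 and 83.2% in H596, where DSG3 held the other 16.8%.

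The desmocollins were lower than the desmogleins and differed less. DSC2 (gene 1824), the desmocollin found in nearly all desmosomes, lies at chr18:28645940-28682395. The gene was found at 4.78 FPKM (95% interval, 4.52 to 5.06) from 1196 counts in H2087 and 7.34 (7.04 to 7.66) from 2176 counts in H596. The ratio was 1.54 (95% interval, 1.43 to 1.65), beyond counting error and short of 2-fold, and 32.8% of the genes tested had a difference as high. DSC3 (gene 1825), the desmocollin of basal keratinocytes, at chr18:28569331-28622781, had 0 counts in H2087, where the same limit is 0.00813 FPKM. It had 7 counts in H596, or 0.0137 FPKM. The DSG3 transcript was therefore present in H596 with almost none of DSC3. DSC1, the desmocollin of the upper epidermis, had 0 counts in both libraries. Summed desmogleins exceeded summed desmocollins 4.79 times in H2087 and 27.4 times in H596, by FPKM.

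The 250 bases before the annotated starts are shown for DSG2, DSG3 and DSC3, genes of the same chromosome 18 cluster. These were present in both libraries, in H596 only and almost not at all, respectively. The sequences are from RefSeq on GRCh38.p14, which is not the build of the expression tables, and are written 5′ to 3′ with each CG dinucleotide in capitals. DSG2 is at chr18:31497927-31498176 (plus strand), DSG3 at chr18:31447491-31447740 (plus strand) and DSC3 at chr18:31042743-31042992 (minus strand).
DSG2: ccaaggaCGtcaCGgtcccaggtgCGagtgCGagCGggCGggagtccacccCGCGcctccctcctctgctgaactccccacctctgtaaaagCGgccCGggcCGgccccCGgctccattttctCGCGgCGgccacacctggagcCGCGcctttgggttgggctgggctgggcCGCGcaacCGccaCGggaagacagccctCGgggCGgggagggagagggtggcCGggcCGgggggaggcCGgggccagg
DSG3: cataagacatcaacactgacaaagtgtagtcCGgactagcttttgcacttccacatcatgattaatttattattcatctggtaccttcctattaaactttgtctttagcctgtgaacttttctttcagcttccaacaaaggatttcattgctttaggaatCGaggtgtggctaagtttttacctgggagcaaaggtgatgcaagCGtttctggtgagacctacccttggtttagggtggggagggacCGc
DSC3: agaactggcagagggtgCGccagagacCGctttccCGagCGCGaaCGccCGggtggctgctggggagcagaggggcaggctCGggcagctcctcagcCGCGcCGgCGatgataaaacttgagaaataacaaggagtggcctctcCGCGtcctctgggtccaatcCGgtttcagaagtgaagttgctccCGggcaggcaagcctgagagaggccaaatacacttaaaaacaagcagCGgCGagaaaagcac

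The DSG2 window had 26 CG dinucleotides and a GC content of 75.2%, the DSC3 window 18 and 60.4%, and the DSG3 window 4 and 42.8%. Over all 35116 windows of this length the medians were 11 and 58.0%, so DSG3 alone of the 3 lay below them. Windows were found for 8 of the 10 members, 10 windows in all since DSC2 and JUP have a pair each; PKP2 and PKP3 were not matched. The other 7 windows, of DSC2, DSP, PKP1, JUP and PERP, held 12 to 34 CG dinucleotides. Of the 10 windows, 7 held GGGCGG, the GC box, on either strand, against 42.6% of all windows, and 4 held CAGGTG, an E-box bound by SNAI2 and ZEB1, against 17.5%. None of the 10 held TATAAA, against 10.7% of all windows. These matches describe letters in a window and are no evidence of binding.

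The 4 cadherin members lie in 1 cluster of 560 kb, from DSC3 to DSG2, in which 10 genes are listed. In H2087, only DSC2 and DSG2 of the 10 had any counts. In H596, DSC2, DSG3 and DSG2 had FPKM values of 7.34, 33.9 and 167, DSC3 had 7 counts, the antisense genes DSG1-AS1 and DSCAS had 15 and 1, and DSC1, DSG1, DSG4 and DSG2-AS1 had 0. DSCAS overlaps DSC2 and DSG2-AS1 overlaps DSG2, and reads of such pairs are uncertain where counting ignored strand. Within 5 Mb on either side, 24 other genes passed the filter. Their median difference was 1.499 on the log2(FPKM + 1) scale, against 0.12 for all genes tested. Of the 24, 18 were higher in H596, against 18.2% of all genes tested, and 2 were lower, against 14.2%. Among the 18 was CDH2, also in the adherens junction and mesenchymal lists below. It had 0 counts in H2087, so its place was fixed by the filter, and whether this holds for others of the 18 is not given here. DSG2 and DSG3 thus exceeded the median of their surroundings, and DSC2, with a difference of 0.53, lay below it. The part of the surrounding region in the differences of the members was not tested.

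**Figure D3:**
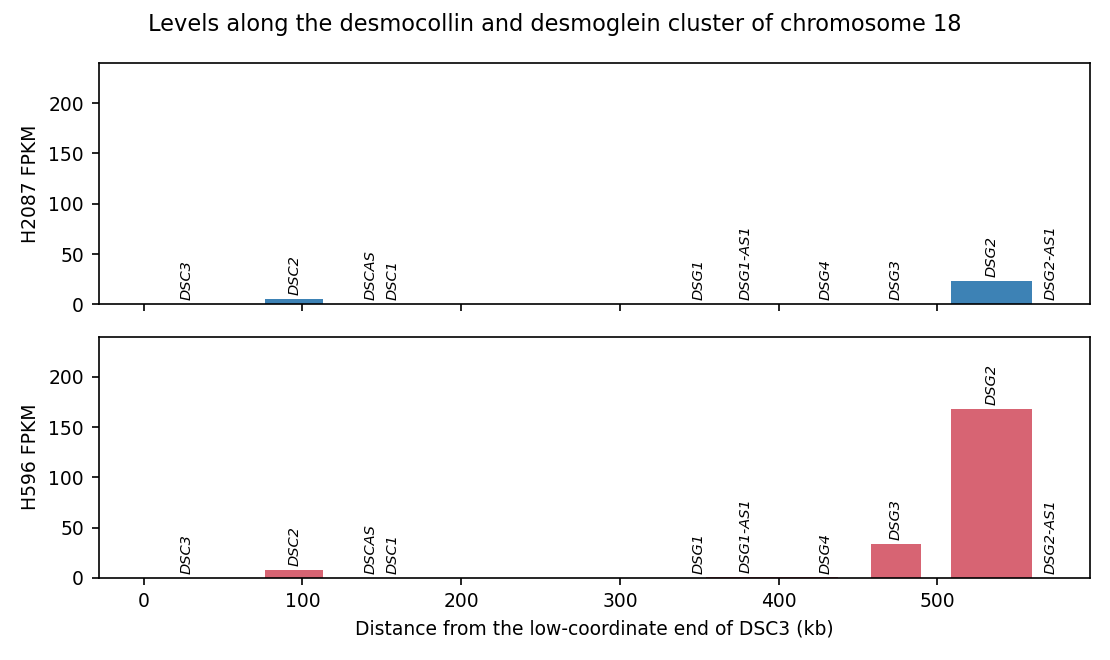
FPKM (vertical axes, linear) of the 10 genes listed along the chromosome 18 cluster, with H2087 above and H596 below, against the distance from the low-coordinate end of DSC3 in kb. Bars span each gene; DSG2 at the right end reaches 22.9 in H2087 and 167 in H596, DSG3 beside it 0 and 33.9, and DSC2 near the left end 4.78 and 7.34.

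The DSC2 gene makes a pair of transcripts that differ by an exon of 46 bases and encode proteins with a long (Dsc2a) or a short (Dsc2b) tail, of which the short tail lacks the plakoglobin-binding part. The exon, at chr18:28648265-28648310 of hg19 on the minus strand, is shown because it alone tells them apart, with the stop codon it brings in capitals.
DSC2 exon: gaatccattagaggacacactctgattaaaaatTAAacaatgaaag
The stop codon begins at position 34 of the exon. Dsc2b (NM_004949) held 21.98% of the DSC2 FPKM in H2087 and 27.4% in H596. By counts, the shares were 22.2% (95% interval, 19.9 to 24.6) and 27.5% (25.7 to 29.4), and these intervals do not overlap. How reads were divided between forms with nearly all exons in common was estimated by the authors' tool, and the error of that step is not in the interval. Dsc2a (NM_024422) was the larger form in both libraries, with FPKM values of 3.73 and 5.33. All 7 DSC3 counts in H596 were given to its b form.

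DSP (gene 1832), the plakin that ties the plaque to keratin filaments, had the largest ratio of the members with more than 3 counts in both libraries. It lies at chr6:7541808-7586950. It was measured at 5.44 FPKM (95% interval, 5.23 to 5.66) from 2453 counts in H2087 and 117 (116 to 118) from 61334 counts in H596, a ratio of 21.6 (20.7 to 22.5). Only 0.720% of the genes tested had a difference as high. DSP ranked 8463 in H2087 and 533 in H596.

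The listed DSP transcripts differ in the splice donor of a single long exon, which encodes much of the coiled-coil rod of the protein. Variant 1 (NM_004415, desmoplakin I) keeps 2295 bases of the exon, variant 3 (NM_001319034, desmoplakin Ia) 966 and variant 2 (NM_001008844, desmoplakin II) 498. The shorter forms thus lose 1329 and 1797 bases. The donors are shown as the last 15 bases of the exon and the 15 that follow, with the GT of each donor in capitals, on the plus strand of hg19 at chr6:7581788-7581817, chr6:7580459-7580488 and chr6:7579991-7580020, in the order shown.
Variant 1 donor: aagcaggctttagagGTattcacaaatact
Variant 3 donor: aatgaactgagtaagGTaagaaacaattat
Variant 2 donor: aatgagctggcaaagGTaagaaaccactat

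Each DSP transcript was more abundant in H596, but not by the same ratio. Variant 1 stood at 4.12 FPKM in H2087 and at 77.5 in H596, a ratio of 18.8. Variant 2 had 0.919 and 34.4, a ratio of 37.4, and variant 3 had 0.407 and 5.51, a ratio of 13.5. The share of variant 2 in the DSP FPKM was 16.9% in H2087 and 29.3% in H596, and that of variant 3 was 7.47% and 4.69%. By counts, variant 2 held 14.4% (95% interval, 13.1 to 15.8) in H2087 and 25.4% (25.1 to 25.8) in H596, a difference beyond counting error. As for DSC2, the division of reads among these forms was estimated by the authors' tool, and its error is not in the interval. The full-length variant 1 was the main form in both libraries, with 75.7% and 66.0% of the FPKM.

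JUP (gene 3728), an armadillo protein shared with adherens junctions, lies at chr17:39910859-39942964. The gene was found at 67.8 FPKM (95% interval, 66.5 to 69.0) from 10848 counts in H2087, the highest of the members there, and 173 (172 to 175) from 32757 counts in H596. The ratio was 2.56 (95% interval, 2.50 to 2.62), and 11.6% of the genes tested had a difference as high. JUP exceeded DSP 12.4 times in H2087 and 1.48 times in H596 by FPKM, so the transcripts of these plaque proteins stood closer in H596. Transcript variant 2 (NM_021991) of JUP held 56.5% of the gene's FPKM in H2087 and 60.5% in H596.

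The plakophilins, armadillo proteins that cluster the cadherins and recruit desmoplakin, differed little in sum, with FPKM totals of 73.8 in H2087 and 103 in H596. PKP3 (gene 11187), found in most epithelia, lies at chr11:392599-404908. It was measured at 51.2 FPKM (95% interval, 50.01 to 52.4) from 6969 counts in H2087 and 90.9 (89.5 to 92.4) from 14654 counts in H596, a ratio of 1.78 (1.73 to 1.83). PKP3 reached the 2-fold limit as TPM, with a log2 difference of 1.01, and not as FPKM, with 0.82. Transcript variant 2 of PKP3 (NM_001303029), which starts further upstream, held 8.26% and 8.05% of the PKP3 FPKM, within counting error of each other.

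PKP2 (gene 5318), the plakophilin of simple epithelia and heart, was the only member with a lower FPKM in H596. It lies at chr12:32943680-33049780. The gene was found at 22.6 FPKM (95% interval, 21.9 to 23.2) from 4663 counts in H2087 and 11.8 (11.4 to 12.2) from 2881 counts in H596. The H2087 level was 1.92 times that of H596 (95% interval, 1.83 to 2.01). On the log2(FPKM + 1) scale the difference was -0.88, and -1.005 with TMM scaling, just past the 2-fold limit. Of the genes tested, 16.3% had a difference as low. PKP3 held 69.4% of the plakophilin FPKM in H2087 and 88.2% in H596, and PKP2 30.6% and 11.4%.

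Nearly all PKP2 counts belonged to the 2a form (NM_001005242), with 99.9% of the FPKM in each library. The 2b form (NM_004572) had 3 counts in H2087 and 2 in H596.

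PKP1 (gene 5317), the plakophilin of stratified epithelia, lies at chr1:201252580-201302121. It had 3 counts in H2087, an FPKM of 0.00766 (95% interval, 0.00261 to 0.0225), and 109 counts in H596, an FPKM of 0.353 (0.292 to 0.425). The ratio of 46.03 had an interval of 15.3 to 227, and both levels were below 1. PKP1 held 0.342% of the plakophilin FPKM in H596. All its counts were given to the longer transcript, NM_000299.

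PERP (gene 64065) lies at chr6:138409642-138428660. It was measured at 40.6 FPKM (95% interval, 39.8 to 41.5) from 8381 counts in H2087 and 183 (181 to 184) from 44588 counts in H596, where it was the highest of the members. The ratio was 4.49 (95% interval, 4.39 to 4.60), and 4.65% of the genes tested had a difference as high. PERP ranked 1894 among all genes in H2087 and 305 in H596.

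The order of the members also differed between the libraries. In H2087 it ran from JUP through PKP3, PERP, DSG2, PKP2, DSP and DSC2 to PKP1, with DSG3 and DSC3 at 0, and the neighbours DSG2 and PKP2 did not differ beyond counting error. In H596 it ran from PERP through JUP, DSG2, DSP, PKP3, DSG3, PKP2, DSC2 and PKP1 to DSC3, with no overlap of neighbouring intervals. No member reached an FPKM of 100 in H2087, where 2.54% of all genes did. In H596, DSG2, DSP, JUP and PERP (4 of 10) reached it, against 2.30% of all genes.

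**Figure D4:**
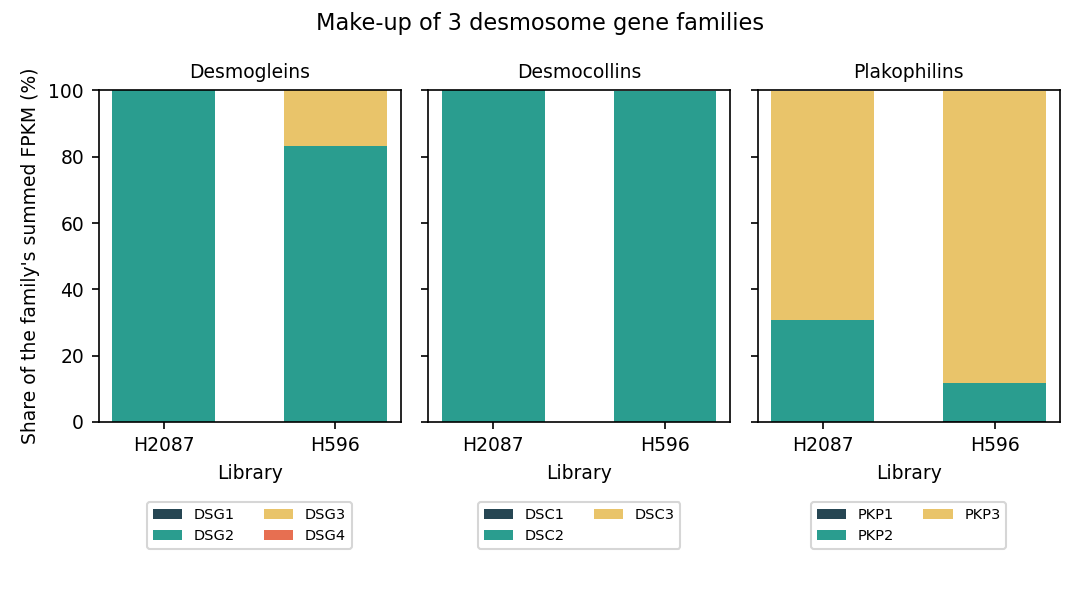
Share of each gene in the summed FPKM of the desmogleins, desmocollins and plakophilins (vertical axes, percent), with 1 stacked bar per library. DSG3 takes 16.8% of the desmogleins in H596 and none in H2087, DSC2 fills nearly all of both desmocollin bars, and PKP3 takes 69.4% of the plakophilins in H2087 and 88.2% in H596.

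**Figure D5:**
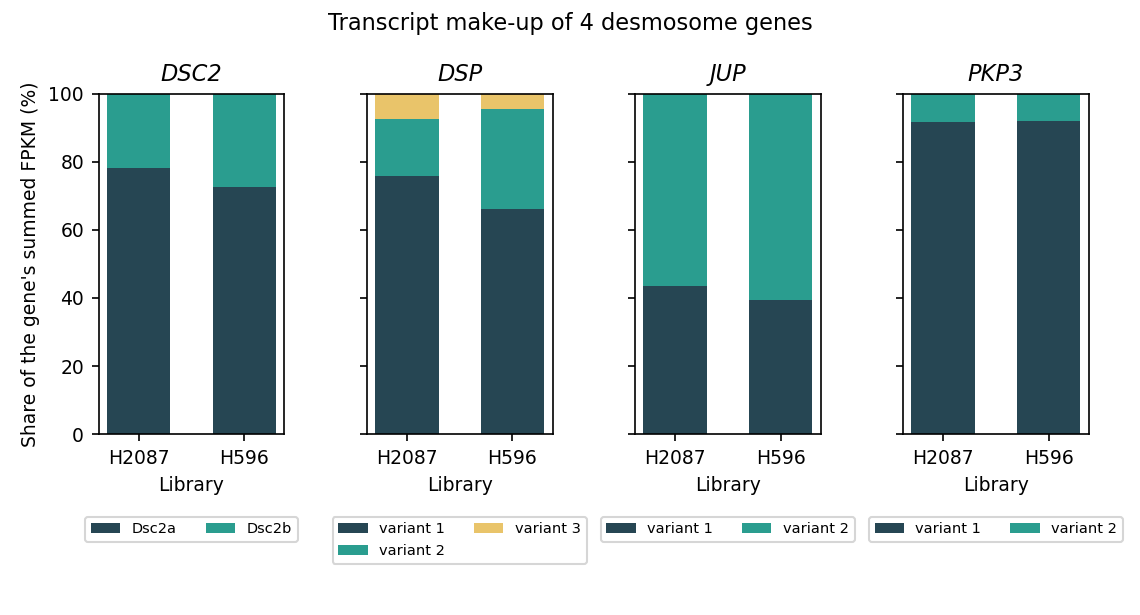
Share of each transcript in the summed FPKM of DSC2, DSP, JUP and PKP3 (vertical axis, percent), with 1 stacked bar per library. Variant 2 of DSP takes 16.9% in H2087 and 29.3% in H596, while the PKP3 bars are almost the same.

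Of 9 other desmosome genes, 5 passed the filter. PPL and KAZN (2 of the 5) were higher in H596, against 18.2% of all genes tested, and none was lower, against 14.2%. The median log2 difference of these 5 was 0.94, against 0.12 for all genes tested. PPL (periplakin), a plakin of stratified epithelia, stood at 15.5 FPKM in H2087 and at 44.8 in H596, a ratio of 2.89 (95% interval, 2.80 to 2.99). EVPL (envoplakin), its partner, had 7.35 and 15.1, which is 0.94 on the log2(FPKM + 1) scale and below the limit. KAZN (kazrin), which binds periplakin, had 2.25 and 8.31. PKP4, a relative of the plakophilins found at several junctions, had 30.4 and 18.8, and PNN (pinin) had 108 and 62.4, both within 2-fold. CDSN (corneodesmosin), of the cornified layer, had 52 counts in H2087 and 4 in H596, with FPKM values below 1. The plakins PPL and EVPL thus lay above their H2087 level in H596, as DSP did, by smaller ratios.

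Of 9 regulators of desmosomes, 9 passed the filter, with a median log2 difference of 1.41. In H596, 6 were higher, against 18.2% of all genes, and none was lower, against 14.2%. TP63 and GRHL3 (2 of the 6) were below 1 FPKM in H2087 and passed the filter only through H596; GRHL3 was named after its values were seen. The largest difference was that of TP63, the p63 transcription factor of basal epithelium, with an FPKM of 0.183 from 46 counts in H2087 and 55.2 from 14447 counts in H596. EGFR, a receptor whose signalling loosens desmosomes, had 37.8 and 265. GRHL1, a factor that acts on desmosomal cadherin genes, had 16.8 and 19.1, and ADAM17, a sheddase of DSG2, had 16.1 and 15.4, both within 2-fold. The other 4 higher genes had ratios between 2.22 and 12.3.

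Other junctions differed in different degree. Of 14 adherens junction genes, 12 passed the filter, with a median of 0.18. In H596, 4 of the 12 were higher, against 18.2% of all genes tested, and 1, AFDN, was lower, against 14.2%. CDH2 was the 1 higher gene that passed only through H596. The main epithelial cadherin, CDH1, stood at 52.3 FPKM in H2087 and at 59.6 in H596, so CDH1 lacked the difference seen for DSG2. NECTIN1 had 9.90 and 117, NECTIN3 2.11 and 17.8, AFDN (afadin), which binds nectins, 36.7 and 17.4, and CTNNA1 (alpha-catenin) 220.4 and 129. CDH2 (N-cadherin) had 0 counts in H2087 and an FPKM of 4.17 in H596, and CTNNA2 had 9 counts in H2087 and 0 in H596. Among 9 genes of hemidesmosomes, which anchor epithelial cells to the matrix, 9 passed the filter, with a median of 1.62. In H596, 7 were higher, against 18.2% of all genes, and 1 was lower, against 14.2%. Of the 7, COL17A1 passed only through H596. COL17A1, a basal hemidesmosome collagen, had an FPKM of 0.160 from 44 counts in H2087 and 113 from 35889 counts in H596, and ITGB4 had 9.57 and 134. CD151, a tetraspanin of hemidesmosomes, had 107 and 152, within 2-fold.

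The keratins, to which desmosomes attach, were measured as a list of 10, of which 9 passed the filter. In H596, 6 of the 9 were higher, against 18.2% of all genes tested, and 2 were lower, against 14.2%. KRT5, KRT13 and KRT17 (3 of the 6) passed only through H596. KRT13 stood at 0.281 FPKM in H2087 and at 3558 in H596, and KRT5 had 0 counts in H2087 and an FPKM of 106 in H596, while KRT18 had 3607 and 234 and KRT8 2493 and 536. KRT14 and KRT17 had 0 counts in H2087 and FPKM values of 1.33 and 4.57 in H596. Keratin genes and surfactant genes such as SFTPA1 have near-identical copies, so the division of reads between copies is uncertain.

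The label of lung adenocarcinoma was compared with marker genes. The 6 markers of lung adenocarcinoma and alveolar cells (NKX2-1, NAPSA, SFTPB, SFTPC, SFTPA1 and SFTA3) summed to 316 FPKM in H2087 and to 0.633 in H596. SFTPA1 and SFTPB had 0 counts in H596, but SFTPB had only 22 counts (0.123 FPKM) in H2087. SFTPC had 0 counts in H2087 and 2 in H596. NKX2-1, the lung lineage factor, stood at 110.0 FPKM in H2087 and at 0.508 in H596. The 6 squamous or basal markers (TP63, KRT5, KRT6A, KRT14, SOX2 and DSG3, itself a member) summed to 40.8 and 307, and each was above its H2087 level in H596. In H2087, KRT5, KRT14 and DSG3 had 0 counts and SOX2 alone gave 39.1 of the sum. SOX2 had 56.5 FPKM in H596, within 2-fold, and KRT14, at 1.33 in H596, did not pass the filter. TP63, KRT5 and DSG3 passed it only through H596. The H596 library therefore held almost none of the markers of its label and held squamous ones. DSG3, as 1 of the 6 markers, contributed 33.9 FPKM to the sum in H596. Of the 4 epithelial markers, CDH1 was within 2-fold and EPCAM, KRT8 and KRT18 were lower in H596. Of the 6 markers of a mesenchymal state, which summed to 53.5 and 34.3, 4 passed the filter, each through a single library. VIM (vimentin) had an FPKM of 51.8 in H2087 and 0 counts in H596, and SNAI2, TWIST1 and CDH2 were higher in H596, with FPKM values of 27.9, 2.22 and 4.17. ZEB1 was at 0.771 in H2087 and had 0 counts in H596. The 5 fibroblast markers summed to 3.898 and 10.7, of which DCN gave 9.77 in H596 and COL1A1 3.89 in H2087, with COL1A2 at 0 in both. Of the 3 blood cell markers, PTPRC and CD3E had 0 counts in both libraries, and CD68 stood at 128 FPKM in H2087 and at 25.6 in H596. The endothelial markers PECAM1 and VWF summed to 0.106 and 0.489. The part of these cell states in the differences of the members was not tested, and with 1 library per cell line the cell line and the library cannot be told apart.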

How the data were processed

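RNA-seq data of 1 library of H2087 and 1 of H596 cells were used. Per the labels and methods, the authors prepared stranded mRNA libraries from total RNA, aligned the reads to hg19 with HISAT2 2.0.5 and estimated abundances with StringTie 1.3.3b. FPKM values and estimated counts were deposited by the authors per gene and transcript; how the counts were made, and whether counting used strand, is not given in the sources used here. In H2087 and H596, 98.7% each of the counts of transcripts with an FPKM above 0 equalled FPKM times length over 1 constant per library, rounded up, so the intervals treat a derived quantity as reads. Gene FPKM of the members equalled the sum of their transcripts.

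Differences are log2(FPKM + 1), H596 minus H2087, on which low genes are understated. No test was possible with 1 library per cell line. Intervals are 95% Wilson intervals (scipy 1.17.1), those of ratios exact conditional intervals; both cover counting error only. Where a count was 0, 3 counts were the limit. Alternatives included TMM scaling (edgeR 4.0.16). The steps were tested on simulated data. The named genes were the members with their transcripts of at least 5% of the gene, all other desmosome genes, and from the adherens junction, hemidesmosome, regulator and keratin lists the 2 highest, the 2 lowest and those at 0 in 1 library. Of the marker lists, which were summed whole, single genes were named after their values were seen. The 2b form of PKP2 was chosen after its values were seen. A hemidesmosome gene and an exon sequence are not reported here. Members and lists were chosen with earlier results of these data known. Exons were found in the GENCODE annotation of GRCh37 by the difference in transcript length, and promoters were taken from RefSeq (GRCh38.p14).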

Additional observations from a re-analysis of the deposited data

How the results depend on the processing

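The counts of members past 2-fold, the differences of the members, their sums and the shares were recomputed in 94 cases. Of these, 44 stayed within counting error or within 1.5 times of a count, and 50 moved. The 50 include the sums as TPM and as library-scaled counts, whose move was fixed by the change of unit. The 44 include cases that could not move. These are the highest single transcript of DSG2, DSG3 and PERP, which have a single transcript, and the shares of 100% in H2087. No member past the 2-fold limit changed sign (0 of 5), but this was largely fixed in advance. A pseudocount cannot turn a sign, and the scalings shifted the median difference of all genes by far less than 2-fold. The difference of DSC3, which rests on 7 counts, went from 0.02 to -0.10 when centred on the median of all genes. The 5 members counted as higher were also 5 with a pseudocount of 0.1, TMM scaling, centring, both other filters and the highest single transcript. In that order, 21.6%, 15.7%, 15.6%, 9.19% (no filter), 15.6% (mean FPKM of at least 10) and 18% of all genes were higher. As TPM, 6 members were higher, with PKP3 added, against 24.6% of all genes. At a 4-fold limit 4 were higher, with JUP lost, against 5.36%. The count of lower members was 0 and became 1 with TMM scaling (PKP2), against 16.2% of all genes. The summed FPKM of the members, 215 in H2087 and 785 in H596, was 459.8 and 1904 as TPM, 179 and 668 from the highest single transcript, and 872 and 4062 as library-scaled counts (CPM). The share of DSG2 among desmogleins in H596 was 83.9% by counts. The share of PKP3 among plakophilins was 59.9% in H2087 and 83.1% in H596 by counts, and 67.5% and 87.3% by the highest transcript. By counts, DSP variant 2 held 14.4% in H2087 and 25.4% in H596, DSP variant 3 4.32% in H596, and JUP variant 2 54.4% and 58.4%. Counts are not per length, which sets these last differences. The log2 difference of DSG3, 5.13, became 8.41 with a pseudocount of 0.1, since its H2087 level was 0. No paired analysis was possible because there was 1 library of each line, which also left none to leave out. DSC3 in both libraries and PKP1 in H2087 rest on 7 counts or fewer.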
